A study of Mus musculus with 16 samples.

Results

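The transcripts of 10 erythroid transcription factors and cofactors, *Gata1*, *Klf1*, *Tal1*, *Lmo2*, *Ldb1*, *Nfe2*, *Bcl11a*, *Zfpm1*, *Gfi1b* and *Foxo3*, were followed through the last nucleated steps of mouse red cell formation. They were chosen by gene symbol from the 46078 genes counted in every library, and all 10 were found and passed the filter on low counts in every comparison. RNA had been sequenced from polychromatic (Poly-E) and orthochromatic erythroblasts (Ortho-E), the stages at which hemoglobin accumulates and the nucleus condenses before it is expelled, sorted by Ter119 and CD44 from steady-state bone marrow. Antibodies to CD3, B220 and Gr-1, surface marks of T cells, B cells and granulocytes, are also listed for the sorts. The strain name given for mice of both genotypes is C57BL/6N-A<tm1Brd> with the allele Ypel4<tm1a(EUCOMM)Wtsi>/WtsiIeg, and the mice were labelled wild type (*Ypel4*+/+) or homozygous mutant (*Ypel4*−/−). No other agent, age or sex is given in the labels. The study rests on this 1 trapped allele, carried in all cells of the mutants, and each of the 4 groups of genotype and population held 4 libraries. Replicates carry a number per genotype, shared by the Poly-E and Ortho-E libraries, and the p-values measure the spread between these libraries.

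GATA1, the zinc finger factor that directs red cell formation, binds DNA together with the basic helix-loop-helix factor TAL1, while LMO2 and LDB1 bridge the DNA-bound factors and bring distant enhancers to promoters. FOG1 (*Zfpm1*) is the cofactor of GATA1, GFI1B is a repressor, KLF1 activates globin and membrane genes, BCL11A silences embryonic globin genes, NF-E2 (*Nfe2*) pairs with small MAF proteins, and FOXO3 drives genes of antioxidant defence and of autophagy in late erythroblasts. Many of these factors act on each other's genes.

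The stretches before the annotated start sites of *Klf1*, *Gfi1b* and *Gata1* are shown because they hold matches to words that factors of the set recognise. In *Klf1* and *Gfi1b* the capitals mark a GATA word next to the CTG of an E-box, as recognised by GATA1 with TAL1, and in *Gata1* they mark a CACC word as recognised by KLF1. Each runs over the 150 bases before the start site, 5′ to 3′ on the strand of the gene, from RefSeq on GRCm38.p6. These start sites can differ from the ends of the counted genes. The *Gata1* stretch lies inside the counted gene, which runs from 7959260 to 7978071, and that of *Klf1* overlaps the counted gene, which starts at 84901928.
*Klf1*, chr8:84901832-84901981, + strand: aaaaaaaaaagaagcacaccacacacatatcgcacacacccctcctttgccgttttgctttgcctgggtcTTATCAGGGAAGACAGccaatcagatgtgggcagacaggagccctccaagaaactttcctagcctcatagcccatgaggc
*Gfi1b*, chr2:28621983-28622132, − strand: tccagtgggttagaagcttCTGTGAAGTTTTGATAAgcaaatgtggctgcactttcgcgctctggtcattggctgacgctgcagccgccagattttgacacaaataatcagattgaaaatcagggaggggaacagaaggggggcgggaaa
*Gata1*, chrX:7967911-7968060, − strand: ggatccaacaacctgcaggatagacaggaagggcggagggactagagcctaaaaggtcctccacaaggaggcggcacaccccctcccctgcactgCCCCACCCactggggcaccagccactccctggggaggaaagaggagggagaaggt
The words were searched on both strands in windows of 300 bases, of which 250 lie before and 50 after the start site, and 8 of the 10 members had 11 such windows. CTG followed after 7 or 8 bases by AGATAA, or by this word with a first T, was found at −80 in *Klf1* and at −131 in *Gfi1b*, counted from the start site to the leftmost base, and in 0.971% of all 32851 windows. GATA words alone (AGATAA, with T in place of the first letter, G in place of the last or both), which overlap with the former, were found in 29.8% of all windows. Among the members they were in the windows of *Klf1* and *Gfi1b*, in 1 of the 2 windows of *Tal1* and in 1 of the 3 of *Ldb1*. A CACC word (CCCCACCC, or A or G in place of the third letter) was found at −55 in *Gata1*, at −68 in *Bcl11a* and in 1 of the 3 windows of *Ldb1*, and in 14.5% of all windows. The NF-E2 word TGACTCA and the FOXO word TGTTTAC were in none of the members' windows, against 5.20% and 3.65% of all windows. These are matches of letters, and no binding was measured.

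Depth was between 2670173 and 12451234 counts per library, and no library was a copy of another. *Ypel4* lay between 490 and 716 CPM in *Ypel4*+/+ and between 9.90 and 23.6 CPM in *Ypel4*−/− Poly-E, and between 4430 and 5441 and between 175 and 224 CPM in the Ortho-E libraries. CPM are counts scaled to a common library total by TMM, edgeR's trimmed mean of M values, over all 16 libraries, while each test scales the libraries of its own comparison. The 20 most abundant genes of a library took at most 18.6% of the counts in Poly-E and at least 29.5% in Ortho-E. Their part in the effect of the scale, given next, was not tested. Scaling by library totals without TMM moved the median log2 fold change of all tested genes between the populations in *Ypel4*+/+ mice from −0.19 to −1.45, and in the *Ypel4*−/− libraries from −0.09 to −1.47. Erythroblast markers were high in every group, markers of T cells and mast cells summed to at most 1.50 CPM of the library total, and those of neutrophils and macrophages to at most 11.3 CPM. The 4 listed markers of plasmacytoid dendritic cells summed to at most 19.2 CPM of the library total, in *Ypel4*−/− Poly-E. Of these, *Siglech* had at most 1 count in a group. Sums for B cells and megakaryocytes are given below.

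The order of the 10 levels differed between the populations. In CPM per kb of exon, the scale on which genes can be set side by side, *Klf1* led in *Ypel4*+/+ Poly-E at 338 ± 22.2 (SD, n = 4). It was followed by *Tal1* at a mean of 227, *Lmo2* at 211 and *Zfpm1* at 197, whose libraries overlapped in that order, then by *Nfe2*, *Gata1* and *Gfi1b*, which overlapped between 106 and 131. *Foxo3* came lower at 75.6 ± 5.24, ahead of *Ldb1* (18.6 ± 2.68) and *Bcl11a* (0.144 ± 0.027). In *Ypel4*+/+ Ortho-E *Lmo2* led at 846 ± 43.8 CPM per kb (SD, n = 4), and no library of the next gene, *Nfe2* (492 ± 11.7), reached it. *Foxo3* came next at 320 ± 22.6, above all libraries of *Klf1* (250 ± 29.7) and *Tal1* (231 ± 7.21), which overlapped. *Zfpm1* (129 ± 22.6), *Gata1* (93.6 ± 5.53), *Gfi1b* (37.3 ± 1.06), *Ldb1* (5.84 ± 1.22) and *Bcl11a* (0.049 ± 0.040) followed without overlap. The *Ypel4*−/− libraries gave the same leading 3 genes in Ortho-E and the same leading 4 in Poly-E, and differed in order only among neighbours whose libraries overlapped: *Nfe2*, *Gata1* and *Gfi1b* in Poly-E, and *Tal1* and *Klf1* in Ortho-E.

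**Figure D1:**
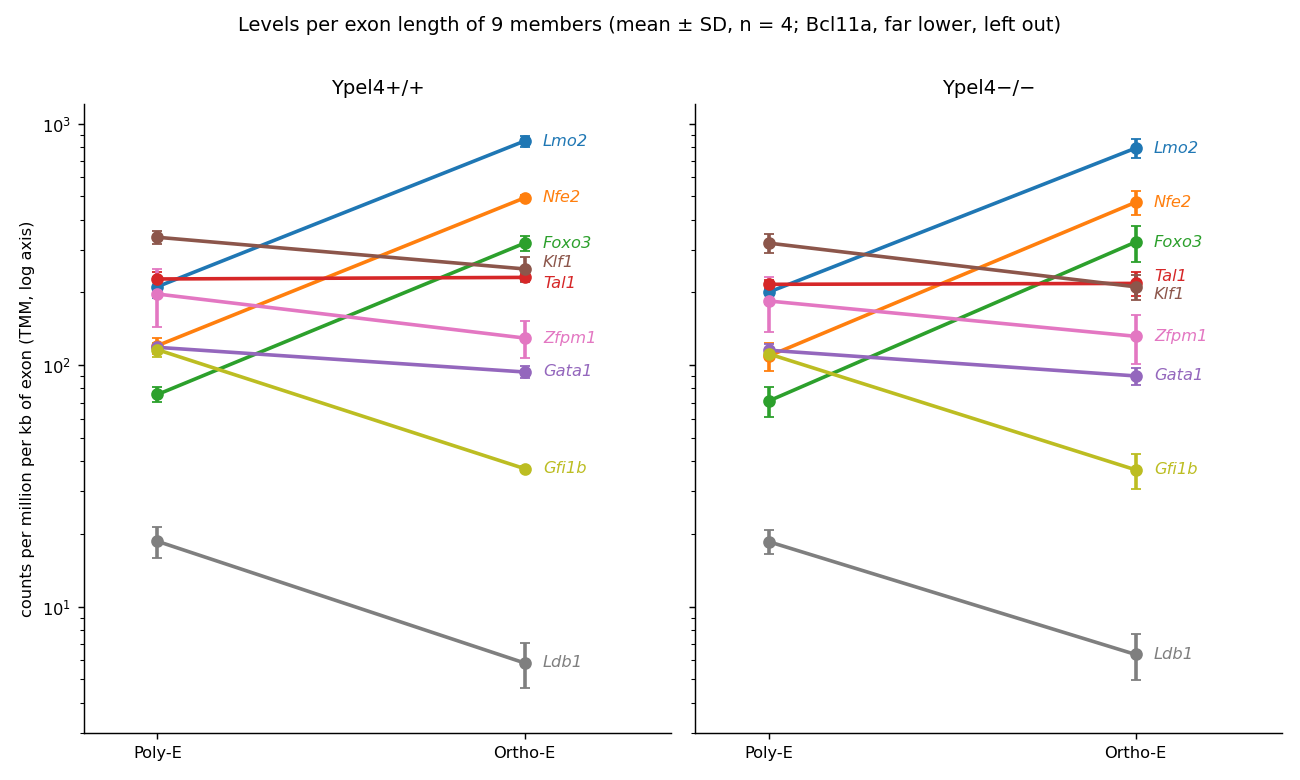
Levels of 9 members in Poly-E and Ortho-E of each genotype, in TMM-scaled CPM per kb of exon on a log axis; points are means of 4 libraries and bars are ± SD. Lmo2, Nfe2 and Foxo3 climb from 211, 120 and 75.6 to 846, 492 and 320 in Ypel4+/+ mice, while Gfi1b and Ldb1 descend to 37.3 and 5.84; on library totals the climb of these 3 is smaller and Tal1 descends.

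The first comparison was that of Ortho-E with Poly-E cells within each genotype, which asks how the factors' transcripts stand at the later stage. *Foxo3*, *Nfe2* and *Lmo2* rose about alike in both genotypes, by 2.04 to 2.12 on the log2 scale in *Ypel4*+/+ and by 2.15 to 2.35 in *Ypel4*−/− mice. *Gfi1b*, *Ldb1* and *Klf1* fell in both, and *Tal1* did not pass the test in either. In *Ypel4*+/+ mice 3 of the 10 were higher and 6 lower in Ortho-E at an adjusted p of 0.05 or less, where 26.4% of 11747 tested genes passed as higher and 32.1% as lower. In *Ypel4*−/− mice 3 were higher and 3 lower, where 29.5% of 11973 genes passed as higher and 31.5% as lower. The median log2 fold change of the 10 was −0.35 in *Ypel4*+/+ and −0.26 in *Ypel4*−/− mice, against −0.19 and −0.09 for all tested genes, so the members as a set stood near the other genes and the spread among them was wide. The libraries of the populations did not overlap for 8 of the 10 in *Ypel4*+/+ mice, as held for 53.2% of all tested genes, and for 7 of the 10 in *Ypel4*−/− mice, as held for 55.5%. In sorted bulk RNA, fewer cells that hold a transcript and less of it per cell cannot be told apart, and every value is a share of the RNA of its library.

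**Figure D2:**
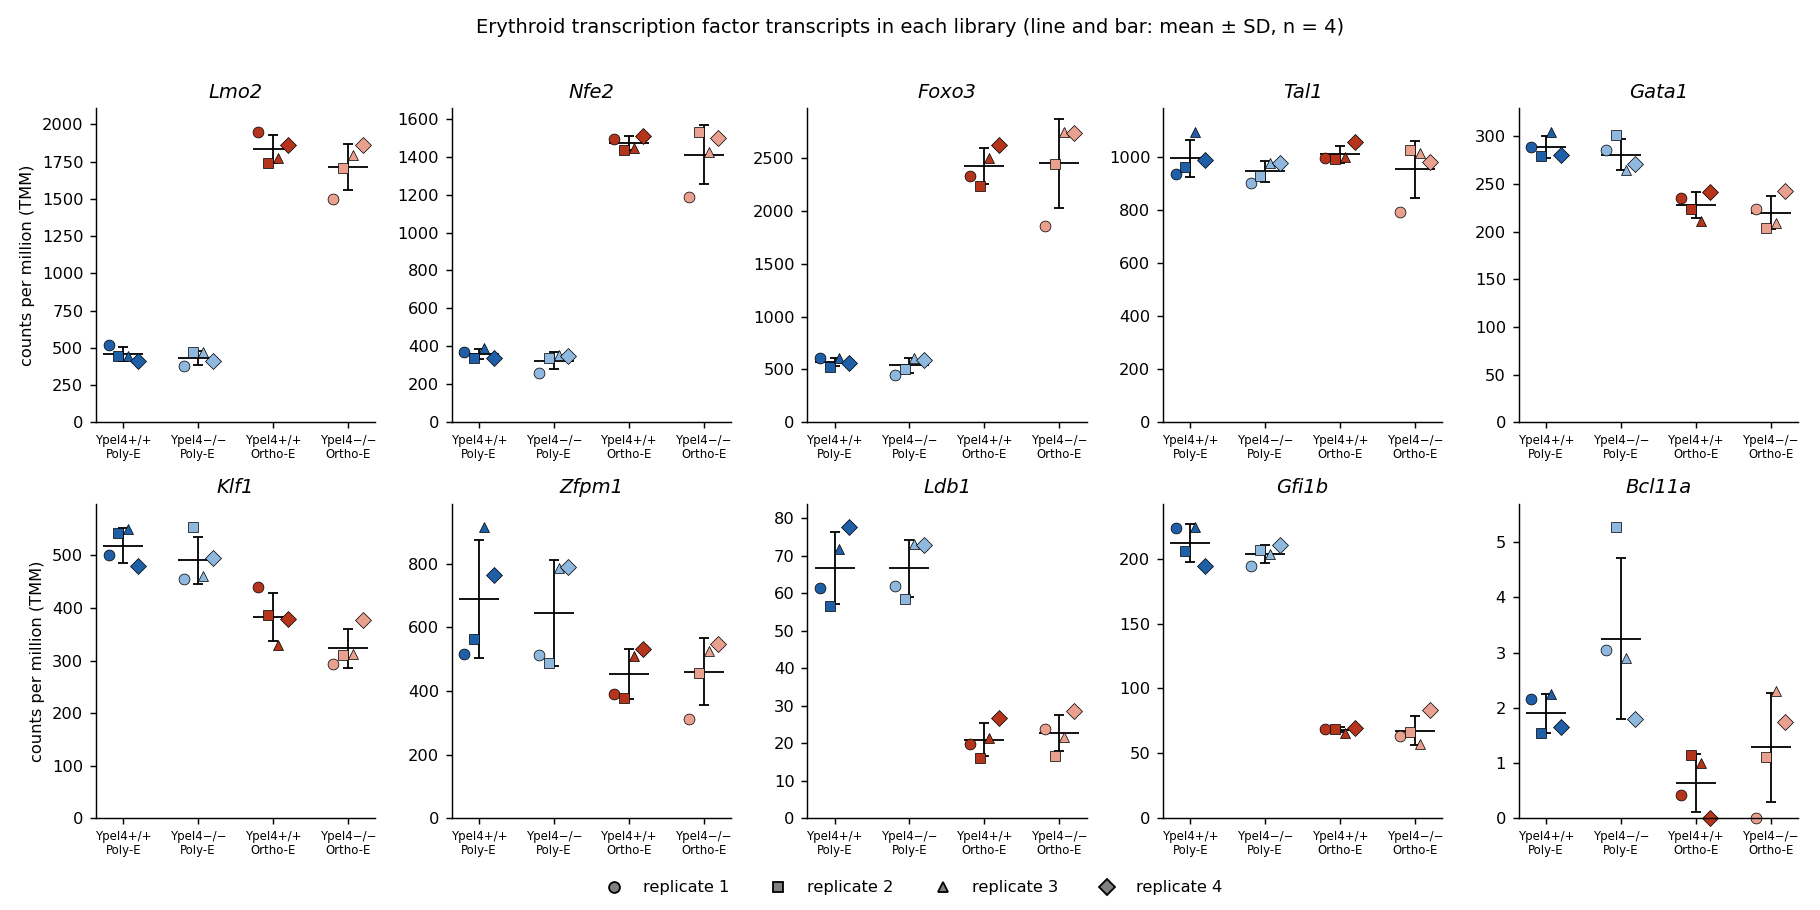
TMM-scaled CPM of each member in the 16 libraries, by group on the horizontal axis; symbols mark the replicate, the line the mean and the bar ± SD (n = 4), and each vertical axis starts at 0. The Ortho-E libraries of Lmo2, Nfe2 and Foxo3 all lie above the Poly-E libraries, those of Gfi1b and Ldb1 all below, and those of Tal1 overlap; on library totals Tal1 is lower in Ortho-E.

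*Lmo2* (ENSMUSG00000032698, chromosome 2, 103957986 to 103981878, + strand, GRCm38) encodes the LIM-only bridge of the complex and was the most abundant member per length in Ortho-E. In *Ypel4*+/+ mice, replicates 1 to 4 had *Lmo2* at 522, 447, 446 and 415 CPM in Poly-E and at 1952, 1741, 1775 and 1865 CPM in Ortho-E. In *Ypel4*−/− mice the values were 379, 473, 470 and 414 CPM in Poly-E and 1497, 1706, 1794 and 1859 CPM in Ortho-E. Every Ortho-E library of either genotype lay above every Poly-E library. The log2 fold change was 2.04 (SE, the standard error, 0.12, adjusted p = 8.17e-14, edgeR) in *Ypel4*+/+ and 2.15 (SE 0.12, adjusted p = 3.72e-17) in *Ypel4*−/− mice, above those of 89.4% and 88.8% of tested genes.

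*Tal1* (ENSMUSG00000028717, chromosome 4, 115056426 to 115071755, + strand), the helix-loop-helix partner, did not pass the test in either genotype. Its mean was 995 ± 70.2 CPM in Poly-E and 1010 ± 31.6 CPM in Ortho-E of *Ypel4*+/+ mice (SD, n = 4), and 946 ± 38.2 and 954 ± 108 CPM in the *Ypel4*−/− groups. The libraries of the populations overlapped in both genotypes. The log2 fold change was 0.06 (95% interval −0.18 to 0.29, adjusted p = 0.694) in *Ypel4*+/+ and 0.18 (−0.05 to 0.42, adjusted p = 0.172) in *Ypel4*−/− mice. The direction depends on the scale: on library totals *Tal1* was lower in Ortho-E by −1.23 and −1.24 and passed the test, and with DESeq2 in *Ypel4*+/+ mice, or with edgeR's filterByExpr in both genotypes, it was higher by 0.19 to 0.32 and passed. Relative to the median of all tested genes it was 0.25 and 0.27 higher with TMM and 0.22 and 0.24 higher on library totals.

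*Ldb1* (ENSMUSG00000025223, chromosome 19, 46032593 to 46045214, − strand) encodes the LIM domain-binding protein that joins such complexes to each other. In *Ypel4*+/+ mice its 4 replicates were at 61.3, 56.5, 71.8 and 77.5 CPM in Poly-E and at 19.9, 15.99, 21.3 and 26.6 CPM in Ortho-E. In *Ypel4*−/− mice they were at 61.8, 58.5, 73.0 and 72.9 CPM in Poly-E and at 23.8, 16.7, 21.7 and 28.6 CPM in Ortho-E. All Ortho-E libraries were below all Poly-E libraries, with replicates 3 and 4 at 1.21 to 1.34 times the mean of replicates 1 and 2 in each of the 4 groups. *Ldb1* fell by 1.61 on the log2 scale in *Ypel4*+/+ (SE 0.16, adjusted p = 1.57e-09) and by 1.38 in *Ypel4*−/− mice (SE 0.15, adjusted p = 1.56e-09). It shares 4.94% of its exon bases with *Pprc1* on the other strand, and reads on shared bases were not counted for either gene.

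*Gata1* (ENSMUSG00000031162, chromosome X, 7959260 to 7978071, − strand) was lower in Ortho-E by a small margin with TMM. Its *Ypel4*+/+ libraries ranged from 280 to 305 CPM in Poly-E and from 211 to 242 CPM in Ortho-E, and its *Ypel4*−/− libraries from 265 to 301 and from 204 to 243 CPM. The populations did not overlap in either genotype. The log2 fold change was −0.30 (SE 0.11, adjusted p = 0.0223) in *Ypel4*+/+ mice, and in *Ypel4*−/− mice −0.18 (SE 0.11, adjusted p = 0.167), which did not pass. The *Ypel4*+/+ call was lost without any 1 of 6 of the 8 libraries, replicates 1 to 4 of Poly-E and 2 and 3 of Ortho-E (log2 fold changes down to −0.16, without Poly-E replicate 3, and adjusted p of 0.0510 to 0.266), with DESeq2's size factors (−0.17, adjusted p = 0.179) and with filterByExpr (−0.12, adjusted p = 0.234), and the *Ypel4*−/− value passed when all 16 libraries were fitted together (−0.35, adjusted p = 0.00679). Relative to the median of all tested genes *Gata1* was lower by −0.11 and −0.09. On library totals it was at −1.59 in *Ypel4*+/+ and −1.60 in *Ypel4*−/− mice and passed the test in both. The median of all tested genes on that scale was −1.45 and −1.47.

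Ratios of counts within a library do not depend on the scaling. The ratio of *Tal1* to *Lmo2* was 3.95-fold lower in Ortho-E than in Poly-E in *Ypel4*+/+ and 3.94-fold lower in *Ypel4*−/− mice, on counts plus 0.5. The ratio of *Ldb1* to *Lmo2* was 12.8-fold lower in *Ypel4*+/+ and 11.7-fold lower in *Ypel4*−/− mice. The ratios of *Foxo3* to *Gata1* and of *Foxo3* to *Klf1* were 5.35-fold and 5.74-fold higher in *Ypel4*+/+ and 5.80-fold and 6.88-fold higher in *Ypel4*−/− Ortho-E cells. For each of these 4 ratios no Ortho-E library of a genotype overlapped with a Poly-E library (two-sided exact permutation p = 0.029 each, the smallest that 4 libraries against 4 allow, and 0.048 after adjustment over 20 tests of 10 ratios). The ratio of *Gata1* to its cofactor transcript *Zfpm1* was 1.18-fold and 1.09-fold higher, with overlap of the libraries (exact permutation test, two-sided p = 0.314 and 0.714, adjusted p = 0.370 and 0.714). That test leaves out the replicate number, within which the log2 ratio was higher in Ortho-E in 4 of 4 *Ypel4*+/+ replicates, by 0.10, 0.26, 0.31 and 0.31, and in 3 of 4 *Ypel4*−/− replicates, at 0.37, −0.46, 0.24 and 0.37.

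**Figure D3:**
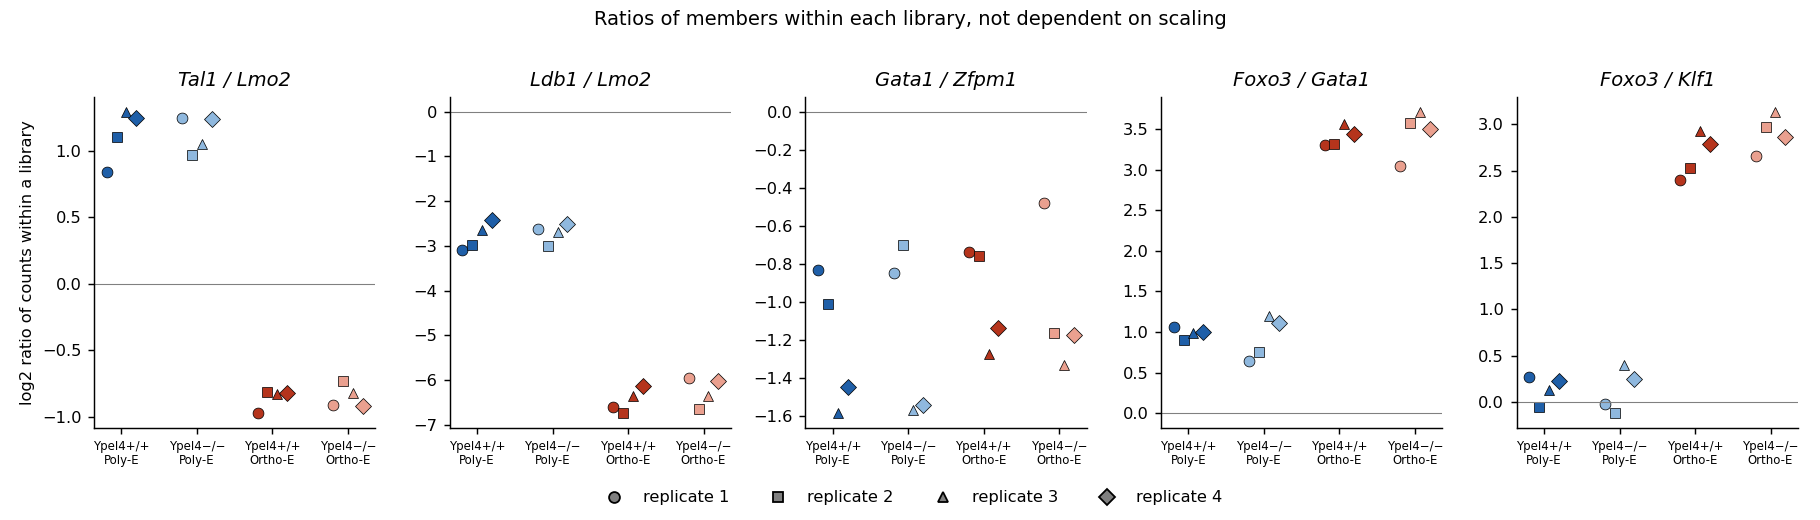
Log2 ratio of the counts of 2 members within each library (counts plus 0.5), by group; symbols mark the replicate and the grey line, where in range, equal counts. Poly-E and Ortho-E libraries separate for Tal1/Lmo2, Ldb1/Lmo2, Foxo3/Gata1 and Foxo3/Klf1, and overlap for Gata1/Zfpm1. For Gata1/Zfpm1 replicates 3 and 4 lie low, as does replicate 2 in Ypel4−/− Ortho-E.

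Of 22 listed partners of these complexes (LIM-domain and LDB1-binding proteins, E proteins, corepressors and coactivators), 8 were higher and 11 lower in Ortho-E in *Ypel4*+/+ mice, and 8 and 11 in *Ypel4*−/− mice, with medians of −0.52 and −0.54. Among all tested genes 26.4% and 29.5% passed as higher and 32.1% and 31.5% as lower. *Crebbp*, the coactivator acetyltransferase CBP, rose by a log2 fold change of 2.39 (adjusted p = 1.24e-13) in *Ypel4*+/+ and 2.86 in *Ypel4*−/− mice. *Cbfa2t3*, the corepressor ETO2, rose by 2.28 and 2.33. *Tcf12*, an E protein that pairs with TAL1, fell by 2.40 on the log2 scale in *Ypel4*+/+ and by 2.35 in *Ypel4*−/− mice, from 31.9 to 5.79 and from 31.4 to 5.23 CPM. *Ssbp4*, a single-stranded DNA-binding protein of the family that stabilises LDB1, had 2 counts in each Ortho-E group, too few for a fold change. On library totals 4 of the 22 were higher and 16 lower in each genotype, and *Crebbp* and *Cbfa2t3* were among the higher. On that scale 1217 of all 11747 tested genes passed as higher and 7087 as lower in *Ypel4*+/+ mice. In *Ypel4*−/− mice 1337 and 7289 of 11973 did.

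*Zfpm1* (ENSMUSG00000049577, chromosome 8, 122282141 to 122337251, + strand) encodes FOG1, and its replicates were uneven. In *Ypel4*+/+ mice its 4 replicates were at 515, 564, 914 and 765 CPM in Poly-E and at 392, 379, 511 and 531 CPM in Ortho-E. In *Ypel4*−/− mice they were at 515, 490, 787 and 790 CPM in Poly-E and at 312, 457, 527 and 548 CPM in Ortho-E. In every group replicates 3 and 4 were higher than replicates 1 and 2, by 1.56 and 1.57 times in Poly-E and 1.35 and 1.40 times in Ortho-E, and the populations overlapped. Within each replicate number Ortho-E was lower than Poly-E, in 4 of 4 *Ypel4*+/+ and 4 of 4 *Ypel4*−/− replicates. The log2 fold change was −0.57 (SE 0.17, adjusted p = 0.00723) in *Ypel4*+/+ mice, a call lost without Poly-E replicate 3 (−0.29, adjusted p = 0.103) or 4 (−0.40, adjusted p = 0.0606) and with filterByExpr (−0.39, adjusted p = 0.0527). In *Ypel4*−/− mice it was −0.33 (SE 0.20, adjusted p = 0.184), and with the replicate number as a block −0.31 with an adjusted p of 0.000772, which passes, as it also does without Poly-E replicate 2 (−0.45, adjusted p = 0.0300). From replicates 1 and 2 alone it was −0.37 and −0.17, and from replicates 3 and 4 alone −0.62 and −0.46, in *Ypel4*+/+ and *Ypel4*−/− mice.

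*Gfi1b* (ENSMUSG00000026815, chromosome 2, 28609450 to 28621982, − strand), the repressor whose stretch with the GATA and CTG word is given above, fell. In *Ypel4*+/+ mice its replicates were at 224, 206, 224 and 194 CPM in Poly-E and at 68.9, 69.1, 65.3 and 69.5 CPM in Ortho-E. In *Ypel4*−/− mice they were at 194, 207, 203 and 210 CPM in Poly-E and at 63.0, 66.4, 56.9 and 83.4 CPM in Ortho-E. The highest Ortho-E library was thus below each Poly-E library. *Gfi1b* fell by 1.60 on the log2 scale in *Ypel4*+/+ (SE 0.12, adjusted p = 7.19e-12) and by 1.43 in *Ypel4*−/− mice (SE 0.13, adjusted p = 1.02e-11). *Klf1*, which holds the same kind of word, fell by less. *Gfi1*, the paralog of *Gfi1b*, had 19 to 37 counts in the *Ypel4*+/+ and 16 to 38 in the *Ypel4*−/− groups. The ratio of *Gfi1b* to *Gfi1* was 4.58-fold lower in *Ypel4*+/+ Ortho-E (exact permutation test, two-sided p = 0.029, adjusted p = 0.048). *Gfi1* had 5 to 14 counts per library in *Ypel4*+/+ Poly-E and 2 to 11 in *Ypel4*+/+ Ortho-E, so the fold is imprecise. Its own change did not pass in *Ypel4*+/+ mice (0.69, adjusted p = 0.236, edgeR). In *Ypel4*−/− Ortho-E the ratio was 2.79-fold lower. There the libraries overlapped (p = 0.114, adjusted p = 0.176, same permutation test) and *Gfi1* had 0 to 7 counts per library.

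Of 13 listed factors of stem cells, progenitors and other blood lineages, 9 were tested in *Ypel4*+/+ mice, of which 0 were higher and 2 lower in Ortho-E, and 10 in *Ypel4*−/− mice, of which 1 was higher and 2 lower. All tested genes passed as higher in 26.4% and 29.5% and as lower in 32.1% and 31.5% of cases. On library totals 0 were higher and 2 lower in *Ypel4*+/+, and 0 higher and 5 lower in *Ypel4*−/− mice. Of all tested genes, 1217 of 11747 were higher and 7087 lower on that scale in *Ypel4*+/+ mice. In *Ypel4*−/− mice 1337 and 7289 of 11973 were. *Ikzf1*, the lymphoid and erythroid zinc finger factor Ikaros, fell by 0.81 on the log2 scale in *Ypel4*+/+ and by 0.70 in *Ypel4*−/− mice. *Myb*, a factor of proliferating progenitors, fell by 1.01 in *Ypel4*+/+ mice (adjusted p = 0.00574) and was at −0.19 (adjusted p = 0.538) in *Ypel4*−/− mice. The interaction of genotype and population for *Myb*, from a separate edgeR fit on all 16 libraries, was 0.70 with an unadjusted p of 0.0774 and an adjusted p of 1.00, and *Myb* had 33 and 68 counts in the Ortho-E groups. *Gata2*, the GATA factor that GATA1 replaces early in the lineage, had 0 to 5 counts per library, and *Spi1*, the myeloid factor PU.1 that GATA1 opposes, 0 to 15. The ratio of *Gata1* to *Gata2* was lower in *Ypel4*+/+ Ortho-E without overlap (exact permutation test, two-sided p = 0.029, adjusted p = 0.048) and overlapped in *Ypel4*−/− mice (p = 0.171, adjusted p = 0.245), but no fold is given, since *Gata2* had 3 and 1 counts over the 4 libraries of the *Ypel4*+/+ and 5 and 0 over those of the *Ypel4*−/− groups and the value rests largely on the added 0.5. The ratio of *Gata1* to *Spi1* overlapped in both genotypes (exact permutation test, two-sided p = 0.571 and 0.657, adjusted p = 0.635 and 0.692).

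*Klf1* (ENSMUSG00000054191, chromosome 8, 84901928 to 84905295, + strand), the activator of adult globin genes, led all members per length in Poly-E and fell in Ortho-E. In *Ypel4*+/+ mice its replicates were at 500, 544, 551 and 480 CPM in Poly-E and at 440, 387, 329 and 378 CPM in Ortho-E. In *Ypel4*−/− mice they were at 454, 553, 462 and 494 CPM in Poly-E and at 294, 310, 312 and 377 CPM in Ortho-E. The populations did not overlap in either genotype. *Klf1* fell by 0.40 on the log2 scale in *Ypel4*+/+ (SE 0.12, adjusted p = 0.00512) and by 0.43 in *Ypel4*−/− mice (SE 0.11, adjusted p = 0.00149). The median of all tested genes was itself at −0.19 and −0.09. On library totals *Klf1* was at −1.69 and −1.85, where that median was −1.45 and −1.47. The *Ypel4*+/+ call was lost without Poly-E replicate 2 (adjusted p = 0.0699) or 3 (−0.25, adjusted p = 0.111) and with DESeq2's size factors (−0.26, adjusted p = 0.0604) or filterByExpr (−0.22, adjusted p = 0.0860), while the *Ypel4*−/− call held without each of its 8 libraries.

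*Bcl11a* (ENSMUSG00000000861, chromosome 11, 24078056 to 24174123, + strand), the globin repressor, was the scarcest member. In *Ypel4*+/+ mice its 4 replicates had 12, 8, 34 and 19 counts in Poly-E and 1, 2, 3 and 0 counts in Ortho-E. In *Ypel4*−/− mice they had 20, 26, 21 and 35 counts in Poly-E and 0, 3, 7 and 9 counts in Ortho-E. A count of 0 allows up to 0.700 CPM in the *Ypel4*+/+ and 1.35 CPM in the *Ypel4*−/− library, with 3 counts as the floor and for counting error only, since reads that carry no molecular identifier are not independent. The log2 fold change was −1.77 (SE 0.61, adjusted p = 0.0153) in *Ypel4*+/+ mice, which was lost without Poly-E replicate 3 (adjusted p = 0.0624), without Ortho-E replicate 4 (−1.12, adjusted p = 0.107) and with DESeq2 (adjusted p = 0.0545). It was −0.93 (SE 0.46, adjusted p = 0.0816) in *Ypel4*−/− mice, which passed without Poly-E replicate 4 (adjusted p = 0.0339) or Ortho-E replicate 3 (adjusted p = 0.0485). *Bcl11a* is also transcribed in B cells, which the B220 antibody marks and whose 8 listed markers summed to 24.8 to 39.3 CPM of the library total in *Ypel4*+/+ and 34.8 to 55.3 in *Ypel4*−/− Poly-E, and to 15.7 to 23.1 and 28.4 to 41.1 CPM in Ortho-E. All 8 had counts in every group except *Vpreb1*, which was at 0 in *Ypel4*+/+ Ortho-E, and the part of such cells in the values of *Bcl11a* was not tested.

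Listed targets of GATA1 and KLF1 rose for the most part. Of 23 listed genes 22 were matched and tested, of which 19 were higher and 1 lower in *Ypel4*+/+ Ortho-E and 20 higher and 1 lower in *Ypel4*−/− Ortho-E, with median log2 fold changes of 1.73 and 1.84. The shares over all tested genes were 26.4% and 29.5% higher and 32.1% and 31.5% lower. *Bcl2l1*, which encodes the survival protein BCL-XL, rose by 3.81 (adjusted p = 7.83e-13) in *Ypel4*+/+ and by 4.15 in *Ypel4*−/− mice, from 222 to 3031 and from 185 to 2914 CPM. *Hba-a2*, an adult alpha globin gene with a near-identical copy, rose by 2.64 and 2.87, on counts that leave out multi-mapping reads. *Sptb*, which encodes beta spectrin, rose by 0.29 (adjusted p = 0.0494) and 0.54. *Cdkn2c*, which encodes the cell cycle inhibitor p18, was the 1 that fell, by 1.79 on the log2 scale in *Ypel4*+/+ and by 1.85 in *Ypel4*−/− mice. The embryonic globin genes *Hbb-y*, *Hbb-bh1* and *Hba-x* had 11 to 42 counts per group and were higher in Ortho-E in both genotypes, by 1.99 to 3.46 in *Ypel4*+/+ and 1.99 to 2.75 in *Ypel4*−/− mice. On library totals 13 of the 22 targets were higher and 6 lower in each genotype. All tested genes on that scale passed as higher in 1217 and as lower in 7087 of 11747 cases in *Ypel4*+/+ mice. In *Ypel4*−/− mice it was 1337 and 7289 of 11973. There *Sptb* turned to −0.99 and −0.88, and of the 3 embryonic globin genes *Hba-x* alone passed as higher. The embryonic genes share sequence with the abundant adult genes. Multi-mapping reads were not counted, so the levels of single copies are uncertain.

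*Nfe2* (ENSMUSG00000058794, chromosome 15, 103248212 to 103258403, − strand) encodes the subunit of NF-E2 that is found in red cell and megakaryocyte precursors. In *Ypel4*+/+ mice its replicates were at 373, 338, 391 and 337 CPM in Poly-E and at 1491, 1437, 1447 and 1509 CPM in Ortho-E. In *Ypel4*−/− mice they were at 260, 338, 353 and 350 CPM in Poly-E and at 1186, 1532, 1427 and 1498 CPM in Ortho-E. Replicate 1 was the lowest of the *Ypel4*−/− libraries in both populations, and no Poly-E library reached an Ortho-E library. *Nfe2* rose by 2.07 on the log2 scale in *Ypel4*+/+ (SE 0.12, adjusted p = 3.44e-14) and by 2.28 in *Ypel4*−/− mice (SE 0.13, adjusted p = 8.35e-17).

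Several listed dimer partners and rivals of NFE2 rose too. Of 8 such genes 7 were tested, and 4 were higher and 0 lower in Ortho-E in each genotype, with medians of 1.44 and 1.68. For all tested genes the shares were 26.4% and 29.5% higher and 32.1% and 31.5% lower. *Mafk* and *Mafg*, small MAF proteins that pair with NFE2, rose by 2.69 and 2.04 in *Ypel4*+/+ and by 3.07 and 2.31 in *Ypel4*−/− mice. *Bach1*, a repressor that takes the same partners and sites, rose by 1.78 and 1.98, and *Nfe2l1*, a relative of *Nfe2*, by 1.44 and 1.68. On library totals 3 were higher and 1 lower in *Ypel4*+/+ and 3 higher and 2 lower in *Ypel4*−/− mice, and *Nfe2l1*, at 0.16 and 0.26, lost its call. For all tested genes on that scale, 1217 of 11747 were higher and 7087 lower in *Ypel4*+/+ mice. In *Ypel4*−/− mice 1337 and 7289 of 11973 were. *Nfe2* rose a little more than *Bach1*, its ratio to *Bach1* being 1.22-fold and 1.24-fold higher in Ortho-E without overlap of the libraries (exact permutation test, two-sided p = 0.029, adjusted p = 0.048, for each genotype). Megakaryocytes use several of the same factors, and their 10 listed markers summed to 78.2 to 102 CPM of the library total in Poly-E and to 99.8 to 119 in Ortho-E, of which 6 had a count in *Ypel4*+/+ and 4 in *Ypel4*−/− Ortho-E. *Itga2b* and *Vwf* held most of these counts, with 1117 and 761 in *Ypel4*+/+ and 1230 and 862 in *Ypel4*−/− Ortho-E, and were higher in Ortho-E by 2.25 and 1.29 on the log2 scale in *Ypel4*+/+ and by 2.52 and 1.47 in *Ypel4*−/− mice, while on library totals *Itga2b* passed as higher (0.96 and 1.11) and *Vwf* did not pass (0.01 and 0.07). Other markers depended on the scale. With TMM *Gp9* was at 0.06 in wild-type mice (adjusted p = 0.815, edgeR) and did not pass. *Gp1ba* was at 0.67 in wild-type mice and −0.54 in mutants (adjusted p = 0.378 and 0.596) and did not pass. On library totals 1 of 4 tested markers was higher and 1 lower in wild-type mice, and 1 of 5 higher and 2 lower in mutants. The median of all tested genes on that scale was −1.45 and −1.47. There *Gp9* was lower in both genotypes (−1.22 and −1.43). Its raw counts, not scaled for depth, went from 401 to 119 and from 352 to 113. *Gp1ba* was lower there in mutants (−1.88), on 22 and 5 counts, and did not pass in wild-type mice (−0.59). *Gp1bb* was at 0 in all groups, and *Pf4* and *Treml1* were at 0 in both Ortho-E groups. The part of such cells in the values of *Lmo2* and *Nfe2* was not tested.

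*Foxo3* (ENSMUSG00000048756, chromosome 10, 42181841 to 42276755, − strand) had the highest fold change of the 10. In *Ypel4*+/+ mice its replicates were at 603, 521, 603 and 561 CPM in Poly-E and at 2329, 2236, 2498 and 2618 CPM in Ortho-E. In *Ypel4*−/− mice they were at 446, 508, 610 and 585 CPM in Poly-E and at 1856, 2445, 2748 and 2738 CPM in Ortho-E. All Ortho-E libraries lay above all Poly-E libraries, and replicate 1 was again the lowest of the *Ypel4*−/− libraries. *Foxo3* rose by 2.12 on the log2 scale in *Ypel4*+/+ (SE 0.12, adjusted p = 3.28e-14) and by 2.35 in *Ypel4*−/− mice (SE 0.13, adjusted p = 1.17e-16), above 90.4% and 90.7% of tested genes. On library totals the rise of *Foxo3* was 0.83 and 0.93, that of *Nfe2* 0.78 and 0.87 and that of *Lmo2* 0.76 and 0.73, and all of these passed the test.

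Most listed FOXO3 targets were higher in Ortho-E. Of 19 genes 18 were tested, of which 13 were higher and 1 lower in *Ypel4*+/+ and 14 higher and 1 lower in *Ypel4*−/− Ortho-E, with medians of 2.56 and 2.69. Over all tested genes 26.4% and 29.5% passed as higher and 32.1% and 31.5% as lower. The list was chosen with earlier results of these data known. *Cat*, which encodes catalase, rose by 3.52 and 3.78, and *Ulk1*, the kinase that starts autophagy, by 3.27 and 3.56. *Txnip*, the inhibitor of thioredoxin, rose by 1.23 and 1.61. *Bcl2l11*, which encodes the death factor BIM, fell by 0.95 on the log2 scale in *Ypel4*+/+ (adjusted p = 5.01e-05) and by 0.49 in *Ypel4*−/− mice (adjusted p = 0.00909). On library totals 12 targets were higher and 3 lower in *Ypel4*+/+ and 12 higher and 2 lower in *Ypel4*−/− mice, and *Txnip*, at −0.05 and 0.20, lost its call. Over all tested genes on that scale, 1217 of 11747 passed as higher and 7087 as lower in *Ypel4*+/+ mice. In *Ypel4*−/− mice 1337 and 7289 of 11973 did. Among 14 other erythroid factors, 5 were higher, 4 lower and 5 without a call in each genotype, and on library totals 2 and 3 were higher and 8 and 8 lower. *Foxo4*, a paralog of *Foxo3*, rose by 2.50 and 2.67, and *Sox6*, a partner of BCL11A in globin silencing, by 1.95 and 2.12. *Stat5b*, the signal carrier of the erythropoietin receptor, fell by 2.01 in *Ypel4*+/+ and by 1.57 in *Ypel4*−/− mice, and *Nr3c1*, the glucocorticoid receptor, fell by 1.69 and by 1.74.

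**Figure D4:**
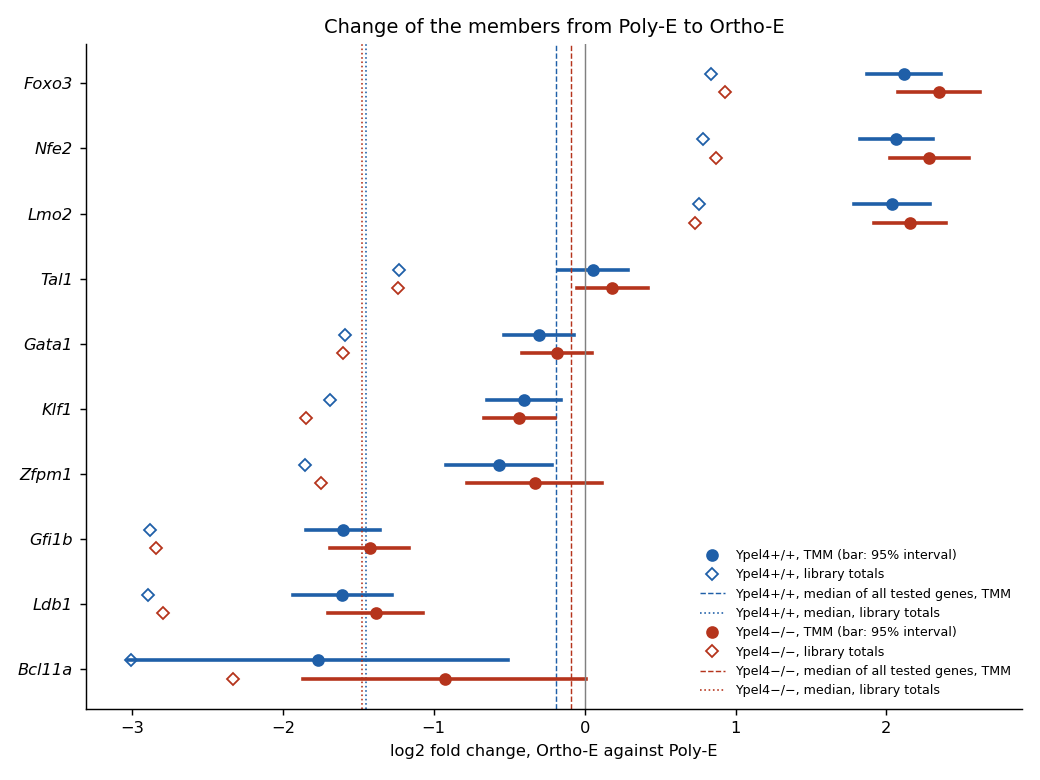
Log2 fold change of each member in Ortho-E against Poly-E, per genotype, with filled points and 95% intervals from edgeR with TMM, open diamonds for library totals, and vertical lines for the median of all tested genes under each scale. Foxo3, Nfe2 and Lmo2 stay above 0 on both scales (2.04 to 2.35 and 0.73 to 0.93), Tal1 is at 0.06 and 0.18 with TMM and at −1.23 and −1.24 on library totals, and Gfi1b, Ldb1 and Klf1 are below 0 on both.

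The next question was whether the loss of *Ypel4* altered these transcripts. Within Poly-E, 0 of the 10 members differed between *Ypel4*−/− and *Ypel4*+/+ mice at an adjusted p of 0.05 or less in edgeR, where 0.00807% of 12395 genes passed. By DESeq2 0 were called. With an unadjusted p under 0.05 in edgeR there were 0 members, against 271 of the 12395 genes. Within Ortho-E, 0 of 10 passed in edgeR and 0 in DESeq2, where 0.0285% of 10521 genes passed in edgeR. There 1 member, *Klf1*, had an unadjusted p under 0.05 in edgeR, as had 387 of the 10521 genes. The libraries of the genotypes overlapped for every member in both populations, as they did for all but 2.09% of the genes tested for Poly-E and 2.35% of those for Ortho-E. These comparisons use the same libraries as those of the populations.

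The intervals show how large a difference the data leave room for. In Poly-E the log2 fold changes of the 9 members other than *Bcl11a* lay between −0.14 (*Nfe2*, 95% interval −0.37 to 0.09) and 0.00 (*Ldb1*, −0.26 to 0.25). The widest of these intervals was that of *Zfpm1*, from −0.58 to 0.39, and that of *Gata1* ran from −0.24 to 0.16. In Ortho-E they lay between −0.23 (*Klf1*) and 0.11 (*Ldb1*, −0.25 to 0.48). *Foxo3* was at 0.03 (−0.17 to 0.23), *Nfe2* at −0.04 (−0.23 to 0.15), *Lmo2* at −0.08 (−0.26 to 0.10), *Tal1* at −0.06 (−0.26 to 0.13) and *Gata1* at −0.04 (−0.24 to 0.17). Differences of the size seen between the populations for *Foxo3*, *Nfe2* and *Lmo2* lie outside these intervals.

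*Klf1* in Ortho-E came nearest to a call. Its 4 *Ypel4*−/− libraries, at 294 to 377 CPM, had a mean of 324 ± 36.9 (SD, n = 4) and its 4 *Ypel4*+/+ libraries, at 329 to 440 CPM, a mean of 384 ± 45.6, and the ranges overlapped. The log2 fold change was −0.23 (95% interval −0.44 to −0.02, unadjusted p = 0.0349, adjusted p = 0.995 from edgeR), and the exact permutation test gave a two-sided p of 0.057. Without *Ypel4*+/+ replicate 1 it was −0.14. *Bcl11a* had the highest values, 0.64 (−0.04 to 1.32, adjusted p = 1.00) in Poly-E and 1.29 (−0.34 to 2.93, adjusted p = 0.995) in Ortho-E, from 73 against 102 and 6 against 19 counts over the 4 libraries of each genotype. Without *Ypel4*−/− replicate 2 the Poly-E value was 0.36, and without *Ypel4*+/+ replicate 4 the Ortho-E value was 0.65. The summed B cell markers given above overlapped between the genotypes in Poly-E and were higher in each *Ypel4*−/− than in each *Ypel4*+/+ library in Ortho-E, and their part in these values was not tested.

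The change between the populations did not pass a test of difference between the genotypes for any member. The interaction of genotype and population, fitted on all 16 libraries, called 0 of the 10 and 0.0% of 13318 genes, while DESeq2 called 0 members and 1 gene. In edgeR 0 of the 10 had an unadjusted p under 0.05, against 363 of the 13318 genes. Excluding *Bcl11a* (0.73, −0.97 to 2.42), the differences in log2 fold change lay between −0.16 (*Klf1*, 95% interval −0.50 to 0.18) and 0.12 (*Zfpm1*, −0.56 to 0.80). *Gata1*, *Zfpm1* and *Bcl11a*, which passed the test in *Ypel4*+/+ and not in *Ypel4*−/− mice, were thus not shown to differ in their change.

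**Figure D5:**
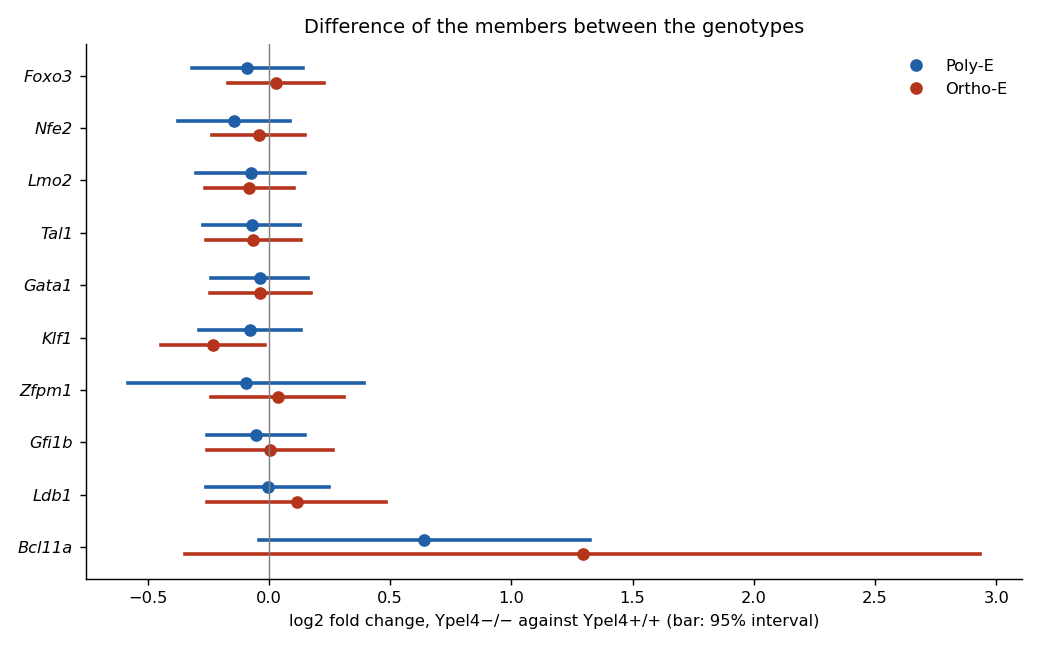
Log2 fold change of each member in Ypel4−/− against Ypel4+/+ libraries within Poly-E and within Ortho-E, with 95% intervals from edgeR (TMM, 4 libraries per group). Each interval includes 0 except that of Klf1 in Ortho-E (−0.44 to −0.02, adjusted p = 0.995), and those of Bcl11a, the scarcest member, are the widest.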

How the data were processed

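Reads had been mapped to GRCm38 in the nf-core/rnaseq pipeline by the authors, who deposited for each library the counts of read pairs per gene from featureCounts 1.6.4: whole numbers, not normalized, summed over exons, without strand, multi-mapping reads or reads on several genes. All 16 libraries were used, grouped and numbered from their titles.

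Genes with a sum of 10 or more counts in a fit were tested by quasi-likelihood in edgeR 4.0.16 under R 4.3.3 (TMM, robust, Benjamini-Hochberg adjustment over all tested genes, threshold 0.05). The standard error was the log2 fold change over the root of F. Permutation tests of single values used log2 of CPM plus 0.5, or of ratios of counts plus 0.5, over all 70 splits of 4 libraries against 4. Alternatives were DESeq2 1.42.0, its size factors, library totals, other filters, all 16 libraries in the fit, globin genes left out, the replicate number as a block or a term for replicates 1 and 2, and each library left out. The scripts were tested on simulated data.

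Named genes were all members, the 2 highest and 2 lowest called genes of each list in *Ypel4*+/+ mice, and genes of the ratios. Members, lists and tests were chosen with earlier results of these data known. Replicate numbers of Poly-E and Ortho-E were taken as the same mouse, since titles and deposited names share them; same-numbered libraries deviated together with correlations of 0.38 to 0.55 in *Ypel4*+/+ and 0.086 to 0.45 in *Ypel4*−/− mice over 5957 genes. Between the genotypes the correlations of same-numbered libraries were 0.20 to 0.57 in Poly-E and −0.087 to 0.26 in Ortho-E. The main tests did not pair libraries in any comparison. Promoters were from RefSeq, and those of *Lmo2* and *Nfe2* were not used here. *Ahsp* was not matched by its symbol.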

Additional observations from a re-analysis of the deposited data

Results flagged for a closer look

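In 40 checks of 4 libraries each (10 members in 4 groups), 3 libraries stood apart from the other libraries of their group for 1 member each, by more than Dixon's 95% critical value for the gap over the range, where chance gives such a gap in about 1 of 20 groups. *Tal1* was highest in *Ypel4*+/+ Ortho-E replicate 4, at 1057 CPM against 991 to 998 CPM. *Nfe2* was lowest in *Ypel4*−/− Poly-E replicate 1, at 260 CPM against 338 to 353 CPM. *Gfi1b* was lowest in *Ypel4*+/+ Ortho-E replicate 3, at 65.3 CPM against 68.9 to 69.5 CPM, on 196 counts.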

How the results depend on the processing

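On library totals *Tal1* turned, to −1.23 in *Ypel4*+/+ and −1.24 in *Ypel4*−/− mice, and all 10 members passed in *Ypel4*−/− mice against 6 with TMM, since the scale shifts most genes down: the split of all calls went from 3101 higher and 3773 lower to 1217 and 7087 in *Ypel4*+/+, and from 3538 and 3767 to 1337 and 7289 in *Ypel4*−/− mice. With each library left out in turn, 5 to 9 members passed between the populations in *Ypel4*+/+ mice (main value 9, and 5 without Poly-E replicate 3, when *Gata1*, *Klf1*, *Bcl11a* and *Zfpm1* lost their calls) and 6 to 7 in *Ypel4*−/− mice. Between the genotypes, and for the interaction, 0 members passed under each alternative run. *Lmo2*, *Nfe2*, *Foxo3*, *Gfi1b* and *Ldb1* kept their direction and call in both genotypes under each alternative.

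The replicate block changed 1 member's call, that of *Zfpm1* in *Ypel4*−/− mice (−0.31, adjusted p = 0.000772), and no other. Over all genes, calls between the genotypes rose with the block from 1 to 4 in Poly-E and from 3 to 13 in Ortho-E. Poly-E replicates 1, 2 and 3, and replicates 2 and 3 of Ortho-E, correlated better with another number of the other genotype than with their own, as did replicate 2 between the populations of *Ypel4*−/− mice. Poly-E calls were also 2 with DESeq2, 4 with no filter, 3 with all 16 libraries, 3 with the term for replicates 1 and 2, 7 in replicates 1 and 2 and 3 in replicates 3 and 4; Ortho-E calls were 4 with DESeq2, 5 with no filter, 4 with that term and 7 in each pair of replicates. The interaction called 1 gene with DESeq2, 1 with the block, 1 in replicates 3 and 4 and 1 without *Ypel4*+/+ Ortho-E replicate 1, against 0. Low counts limit the precision for *Bcl11a* and for ratios to *Gfi1*, and no fold is given for ratios to *Gata2* at this depth.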
